A study of Mus musculus with 14 samples.

Results

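The genes described here are the 10 mouse genes for the sensors, transcription factors and activating proteases of the unfolded protein response: Ern1, Xbp1, Eif2ak3, Atf6, Atf6b, Creb3, Creb3l1, Creb3l2, Mbtps1 and Mbtps2. They were taken by symbol, and all 10 were found among the 24015 genes of the count table. RNA was sequenced from mouse embryonic fibroblasts, connective-tissue cells grown from embryos of day 14.5 of strain 129s2 and used at passages 3 to 4. Cells that lack SirT7, a sirtuin that uses NAD to modify proteins, and wild-type cells were kept for 18 h in medium without glucose or in normal medium. The 4 groups are KO-GS (SirT7-/- cells without glucose, n = 3), KO-NT (SirT7-/- cells in normal medium, n = 4), WT-GS (wild-type cells without glucose, n = 3) and WT-NT (wild-type cells in normal medium, n = 4). A number after the group, as in KO-NT 4, is the replicate. Separate embryos or cultures are not named for the replicates, so the p-values rest on the spread among these samples, which may be technical. The labels give neither how the SirT7 allele was made nor whether embryos were pooled.

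The unfolded protein response lets a cell match the folding capacity of its endoplasmic reticulum to its load of secretory and membrane proteins. IRE1, encoded by Ern1, is a kinase and RNase that cleaves Xbp1 mRNA, so that the ligated mRNA encodes the active transcription factor. PERK, encoded by Eif2ak3, phosphorylates the translation factor eIF2. ATF6 and its relatives ATF6B, CREB3, CREB3L1 and CREB3L2 are membrane-bound precursors that move to the Golgi, where site-1 protease (Mbtps1) and then site-2 protease (Mbtps2) release the part that enters the nucleus. In fibroblasts and bone cells CREB3L1, also called OASIS, is known for its part in collagen secretion. These activating steps act on protein or on mRNA splicing, and gene-level counts measure none of them.

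The stretch of Xbp1 mRNA that IRE1 removes is shown because it is the link between the first sensor and its factor. The annotation of build GRCm38 places Xbp1 on chromosome 11. In transcript Xbp1-201 of GENCODE M21 the removed segment spans bases 815 to 840, which is 26 bases inside the coding sequence. It is set here in capitals between flanks in lower case.
Xbp1-201: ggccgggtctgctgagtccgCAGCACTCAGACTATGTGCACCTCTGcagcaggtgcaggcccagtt
A count for the whole gene takes in reads from mRNA with and without this segment, so the Xbp1 values below are total Xbp1 mRNA.

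The upstream sequences of 3 genes are shown next: Ern1 and Eif2ak3, sensors that rose together without glucose, and Creb3, which did not pass the test. RefSeq promoter windows of build GRCm38.p6 were matched for 8 of the 10 genes, that is all but Atf6 and Creb3l1. The 250 bases before each start are given 5′ to 3′ on the strand of the gene. They lie at chr11:106487797-106488046 on the minus strand for Ern1, at chr6:70844265-70844514 on the plus strand for Eif2ak3 and at chr4:43562408-43562657 on the plus strand for Creb3. Capitals mark CCACG, the second part of the endoplasmic reticulum stress element, on either strand (CGTGG on the other).
Ern1: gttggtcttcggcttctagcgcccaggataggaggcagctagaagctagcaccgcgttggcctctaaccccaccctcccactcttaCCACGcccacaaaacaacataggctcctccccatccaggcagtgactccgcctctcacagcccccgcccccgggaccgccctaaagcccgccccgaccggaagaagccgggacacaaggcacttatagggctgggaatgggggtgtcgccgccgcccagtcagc
Eif2ak3: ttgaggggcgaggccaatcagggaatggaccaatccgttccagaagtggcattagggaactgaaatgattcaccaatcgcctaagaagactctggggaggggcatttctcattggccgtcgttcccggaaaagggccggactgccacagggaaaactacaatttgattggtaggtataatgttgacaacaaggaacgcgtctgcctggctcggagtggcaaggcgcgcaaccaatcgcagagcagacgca
Creb3: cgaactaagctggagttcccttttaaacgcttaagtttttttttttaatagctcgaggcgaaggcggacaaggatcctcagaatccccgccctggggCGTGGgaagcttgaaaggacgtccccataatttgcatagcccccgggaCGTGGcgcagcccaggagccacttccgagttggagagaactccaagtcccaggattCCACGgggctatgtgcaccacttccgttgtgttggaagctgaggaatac

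Motifs were searched on both strands of the whole window, 250 bases before to 50 bases after the start. CCACG was found in 3 of the 8 windows, those of Ern1, Creb3 and Mbtps1, and in 32.8% of all 32851 promoters. The full stress element ERSE (0.119% of all promoters), its second form ERSE-II (0.0365%), the XBP1 element TGACGTGG (0.676%) and the cyclic AMP element TGACGTCA (1.79%) were found in 0 of the 8 windows. The first 3 of these contain CCACG on one strand or the other. A match is a run of letters and not a shown binding site.

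Levels are given as CPM, the usual unit of counts scaled to library size, with library sizes corrected for composition by TMM. Total counts lay between 59788270 (WT-GS 2) and 91607861 (KO-NT 4), and a count of 0 allows up to 0.0502 CPM in the shallowest library, for counting error only. Sirt7 stood at 0.292 to 1.44 CPM in the libraries labelled SirT7-/-, against 17.4 to 23 CPM in wild-type libraries. In KO-GS 1, 2 and 3 it had 0.292, 0.478 and 0.39 CPM. In KO-NT 1, 2, 3 and 4 it had 1.01, 1.41, 1.44 and 0.554 CPM. For Sirt7, KO-GS 3 thus lay between the other libraries of its own group, while KO-NT 4 was the lowest of its group. The medium labels were less clear. For the 6 genes of the set called in wild type, the library labelled KO-NT 4 lay near starved cells, and the library labelled KO-GS 3 lay nearer to unstarved cells. Tests and group means that rest on these libraries are given with and without them, and leaving them out was chosen after seeing the data. Fibroblast markers were present in every library, with a summed level of 25800 to 43200 CPM in KO-GS, 28400 to 52000 in KO-NT, 25000 to 27400 in WT-GS and 43400 to 50500 CPM in WT-NT (12 of 12 markers). Summed macrophage markers (15 of 16 present) spanned 121 to 1130 CPM in KO-GS, 431 to 766 in KO-NT, 14.1 to 388 in WT-GS and 328 to 2160 CPM in WT-NT, and their part in the results was not tested. Summed muscle markers (12 genes) stayed at 82.7 to 249 CPM, endothelial markers (6 genes) at 6.05 to 22.2 CPM and epithelial markers (6 genes, Krt5 at 0 in every library) at 4.42 to 12.7 CPM.

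The first comparison asks how the wild-type cells' expression of these genes differed after 18 h without glucose. Calls were made where the adjusted p was under 0.05 in edgeR's quasi-likelihood test with Benjamini-Hochberg adjustment over all 15263 genes tested. Of the 10 genes, 5 rose (Ern1, Xbp1, Eif2ak3, Atf6 and Mbtps2), 1 fell (Creb3l1) and 4 were not called. Among all genes tested, 33.8% were called, 16.8% higher and 17% lower. The log2 changes of the 10 genes had a median of 0.46, beside -0.035 over all genes tested. The libraries of WT-GS and WT-NT did not overlap for 7 of the 10 genes, namely the 6 called and Creb3l2, beside 45.1% of all genes tested. In bulk RNA, fewer cells of a type and less RNA per cell cannot be told apart.

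Among the kinases, Ern1 had 47.9, 48.9 and 46.6 CPM in the WT-GS libraries, against 26.1, 18.7, 29.1 and 26.7 CPM in the WT-NT libraries. Every starved library lay above every library in normal medium, and the starved ones were close to each other. The log2 change was 0.92 (SE 0.148), a 1.9-fold rise, with an edgeR adjusted p of 0.00348. Eif2ak3 had 80.1, 66.6 and 68.6 CPM in WT-GS, against 38.4, 34.1, 37.7 and 51.3 CPM in WT-NT. WT-NT 4 was the highest of its group but stayed below all starved libraries. The log2 change of Eif2ak3, 0.83 (SE 0.147), is a 1.77-fold rise (edgeR adjusted p = 0.00532). In the annotation, exons of Eif2ak3 share 485 bases with Gm43292 on the opposite strand, 8.05% of its exon bases. Whether reads were counted by strand is not given in the sources used here.

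Xbp1, the target of IRE1's RNase, had 203, 168 and 195 CPM in WT-GS, against 135, 137, 141 and 103 CPM in WT-NT. The groups did not overlap, and WT-NT 4 was the lowest library. Total Xbp1 mRNA rose by less than the other called genes, with a log2 change of 0.55 (SE 0.125, 1.46-fold, edgeR adjusted p = 0.0137). In a fit over all 4 groups, which called 25.9% of 15666 genes, the same change had an edgeR adjusted p of 0.0669. Without WT-GS 1 or without WT-GS 3 the edgeR adjusted p was 0.0613 or 0.0543.

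Atf6 rose most among the 10 genes. It had 282, 276 and 296 CPM in WT-GS, against 101, 78.8, 109 and 101 CPM in WT-NT. The lowest starved library was far above the highest library in normal medium. The log2 change was 1.55 (SE 0.116, 95% interval 1.28 to 1.82), a 2.92-fold rise with an edgeR adjusted p of 0.00022. Its relative Atf6b, which encodes a weaker activator of the same class, averaged 58.3 ± 3.34 CPM in WT-GS (SD, n = 3) and 57.9 ± 8.66 CPM in WT-NT (SD, n = 4). The starved libraries of Atf6b, at 54.5 to 60.9 CPM, lay inside the range of WT-NT, at 48.9 to 68.2 CPM. Its log2 change was 0.01 with an interval of -0.27 to 0.29, and the sign was negative when scaled by library size alone.

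Creb3l1 was the gene of the 10 that fell. It had 44.7, 54.6 and 52.3 CPM in WT-GS, against 185, 188, 183 and 120 CPM in WT-NT. WT-NT 4 was the lowest of its group and still more than every starved library. The log2 change was -1.74 (SE 0.177, 95% interval -2.16 to -1.33), a 3.35-fold lower level with an edgeR adjusted p of 0.000583. Its closest paralog in the set, Creb3l2, which drives expression of secretory-pathway genes in cartilage, had 90.6, 103 and 100 CPM in WT-GS, against 79.8, 58.1, 86.9 and 79.3 CPM in WT-NT. All starved libraries of Creb3l2 were above those in normal medium, but its log2 change of 0.36 (95% interval 0.04 to 0.69) was not called (edgeR adjusted p = 0.0805). DESeq2, which called 41.9% of all genes tested, gave Creb3l2 an adjusted p of 0.0499, and the edgeR fit over all 4 groups gave 0.0435.

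Creb3, also called Luman, had 82.2, 89.2 and 85.6 CPM in WT-GS, against 77.6, 87.3, 71.3 and 92.5 CPM in WT-NT. The groups overlapped, and the log2 change was 0.06 (95% interval -0.18 to 0.3). In the annotation, exons of Creb3 share 360 bases with Tln1 and 133 bases with Gba2 on the opposite strand, 15.2% and 5.61% of its exon bases. Whether the authors counted by strand is not given in the sources used here, so reads of these genes cannot be told apart there.

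The proteases differed from each other in their calls. Mbtps2 had 57.1, 46.8 and 52.5 CPM in WT-GS, against 32.7, 28.2, 35.3 and 36.2 CPM in WT-NT. The groups did not overlap, and the log2 change of 0.65 (SE 0.114) is a 1.57-fold rise (edgeR adjusted p = 0.00485). Exons of the gene Yy2 share 2867 bases with those of Mbtps2 on the same strand, 28.4% of its exon bases, so the count of Mbtps2 is uncertain by an amount the table does not give. Mbtps1 had 244, 218 and 240 CPM in WT-GS, against 202, 216, 198 and 223 CPM in WT-NT. One library of WT-NT was above the lowest starved one, and the log2 change of 0.16 (95% interval -0.02 to 0.34) was not called (edgeR adjusted p = 0.155).

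**Figure D1:**
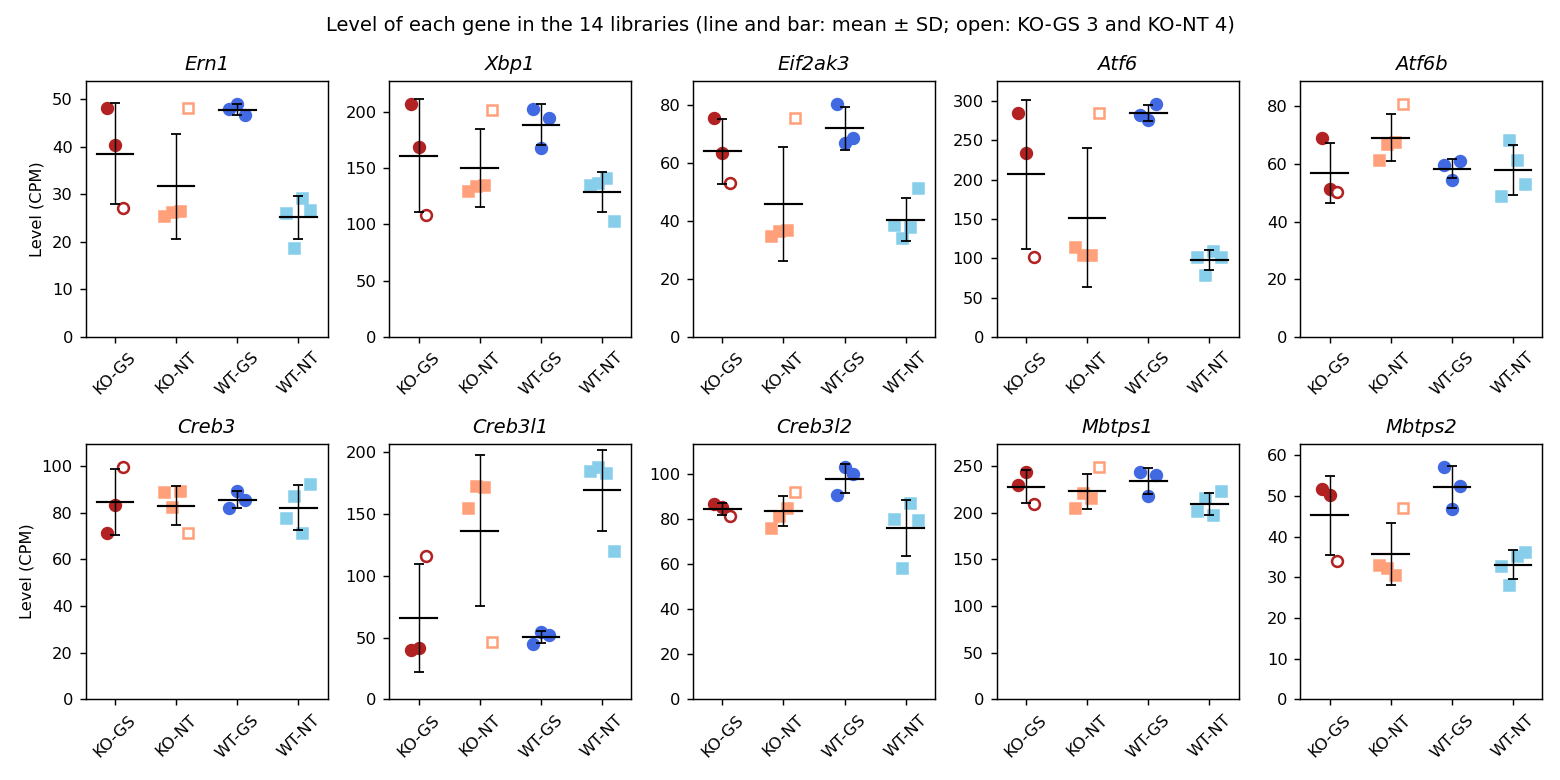
Level of each of the 10 genes in CPM (y axis, from 0) in the 14 libraries by group (x axis); lines and bars are the mean ± SD, and open symbols are the libraries labelled KO-GS 3 and KO-NT 4. Atf6 stood at 276 to 296 CPM in WT-GS and at 78.8 to 109 CPM in WT-NT, while Creb3l1 stood at 44.7 to 54.6 CPM and at 120 to 188 CPM.

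Levels of different genes can be compared only per length, here as CPM per kilobase of the longest coding transcript in GENCODE M21. On that scale Xbp1 was the highest of the 10 in WT-GS, at 88.8 ± 8.69 (SD, n = 3), against 60.6 ± 8.03 (SD, n = 4) in WT-NT. Creb3l1 stood at 19.4 ± 1.98 in WT-GS, against 64.9 ± 12.6 in WT-NT, where its mean was the highest of the 10. Atf6 stood at 39.3 ± 1.37 CPM per kilobase in WT-GS, against 13.4 ± 1.78 in WT-NT. Ern1 had the lowest mean of the 10 in both groups, at 6.88 in WT-GS, against 3.63 CPM per kilobase in WT-NT.

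The same comparison in SirT7-/- cells asks whether these genes differed without glucose when SirT7 is missing. With the libraries as labelled, 0 of the 10 genes were called, and 0% of the 15186 genes tested were called by edgeR, the smallest adjusted p being 0.164. At an unadjusted p under 0.05 edgeR gave 2253 genes, and DESeq2 called 626 genes (4.12%), none of them among the 10. The libraries of KO-GS and KO-NT overlapped for all 10 genes, beside 12.5% of all genes tested that did not overlap. Among the 6 genes called in wild type, the overlap came from KO-NT 4 alone for Ern1 and Eif2ak3. For Creb3l1 and Mbtps2 it lay only between KO-GS 3 and KO-NT 4, so leaving out either library removed it. For Atf6 and Xbp1 each of these libraries overlapped the other group, and both had to be left out to remove the overlap.

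Atf6 had 285, 234 and 101 CPM in KO-GS 1, 2 and 3, against 114, 104, 104 and 285 CPM in KO-NT 1, 2, 3 and 4. KO-GS 3 was as low as the first 3 libraries of KO-NT, and KO-NT 4 as high as KO-GS 1. With all libraries the log2 change was 0.45 (SE 0.487, 95% interval -0.69 to 1.6, edgeR adjusted p = 0.646). Without the libraries labelled KO-GS 3 and KO-NT 4 it was 1.29 (SE 0.107, 2.44-fold, edgeR adjusted p = 0.00201).

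Creb3l1 had 39.8, 41.5 and 116 CPM in KO-GS, against 155, 173, 172 and 46.1 CPM in KO-NT. The last library of each group again lay nearer to the other group. Its log2 change was -1.04 (SE 0.568, 95% interval -2.38 to 0.3, edgeR adjusted p = 0.41) as labelled. Leaving out both libraries gave -2.02 (SE 0.0771, 4.06-fold lower, edgeR adjusted p = 0.00126), which ranked 8 of the 15284 genes tested by p-value.

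Ern1 had 48.2, 40.3 and 27.1 CPM in KO-GS, against 25.5, 26.3, 26.5 and 48.2 CPM in KO-NT. Eif2ak3 had 75.5, 63.2 and 53.1 CPM in KO-GS, against 34.7, 36.6, 36.9 and 75.3 CPM in KO-NT. For both sensor kinases KO-NT 4 equalled or nearly equalled the highest starved library, but KO-GS 3 was intermediate for Eif2ak3. As labelled, the log2 changes were 0.3 for Ern1 (95% interval -0.4 to 0.99) and 0.49 for Eif2ak3 (95% interval -0.23 to 1.2). Without both libraries they were 0.78 for Ern1 (SE 0.0925, edgeR adjusted p = 0.00385) and 0.96 for Eif2ak3 (SE 0.0924, edgeR adjusted p = 0.00252).

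Xbp1 had 207, 169 and 108 CPM in KO-GS, against 130, 134, 135 and 202 CPM in KO-NT. KO-GS 3 was below every library of KO-NT. The log2 change of total Xbp1 was 0.11 as labelled (95% interval -0.49 to 0.72) and 0.51 without both libraries (SE 0.0986, edgeR adjusted p = 0.0138). Mbtps2 had 51.6, 50.1 and 34.1 CPM in KO-GS, against 33, 32.2, 30.5 and 47.1 CPM in KO-NT. Its log2 change was 0.35 as labelled (95% interval -0.14 to 0.85) and 0.69 without both libraries (SE 0.0665, edgeR adjusted p = 0.00252).

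The other 4 genes showed no call with or without the 2 libraries. Creb3 averaged 84.7 ± 14.2 CPM in KO-GS (SD, n = 3) and 83 ± 8.42 CPM in KO-NT (SD, n = 4), and Atf6b 56.9 ± 10.5 and 69.1 ± 8.22 CPM in the same groups. Without the 2 libraries the 95% intervals of the log2 change were -0.45 to 0.25 for Atf6b, -0.38 to 0.07 for Creb3, -0.07 to 0.27 for Creb3l2 and 0 to 0.32 for Mbtps1. In all, 5 of the 10 genes then rose and 1 fell, the same 6 genes as in wild type, beside 39.7% of the 15284 genes tested (20.9% higher and 18.8% lower). This fit holds 2 libraries of KO-GS and 3 of KO-NT, and the libraries left out were chosen on their expression, so its p-values describe the remaining libraries only.

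**Figure D2:**
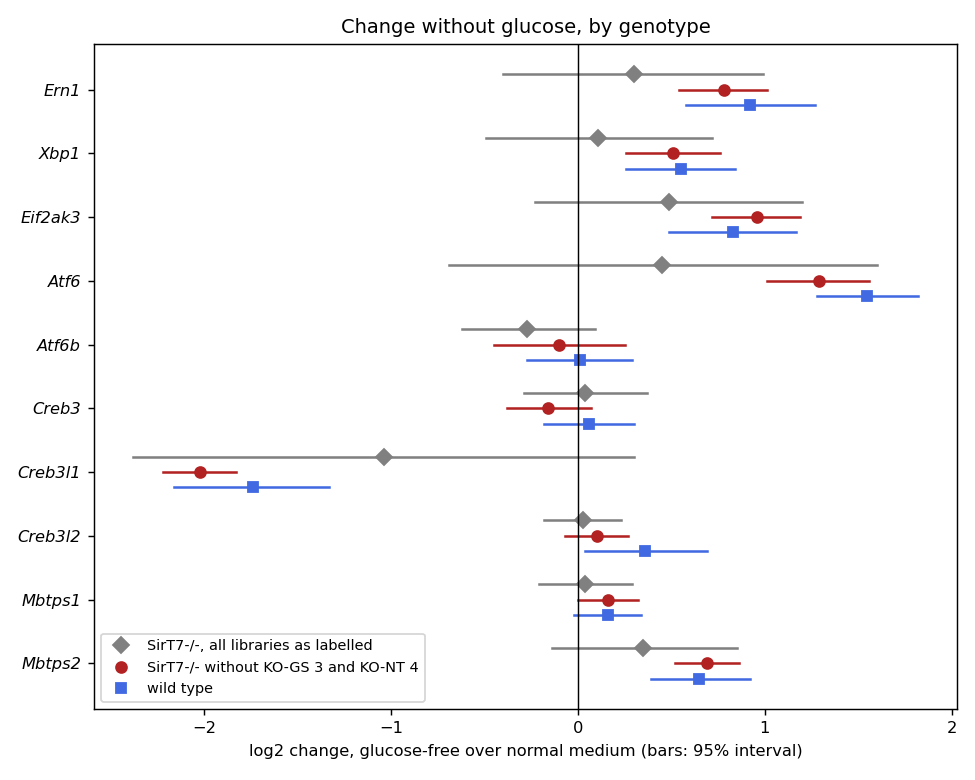
Log2 change without glucose over normal medium (x axis) of each of the 10 genes (y axis), with 95% intervals as bars, for SirT7-/- as labelled (diamonds), SirT7-/- without KO-GS 3 and KO-NT 4 (circles) and wild type (squares). For Atf6 the values were 0.45, 1.29 and 1.55, and for Creb3l1 -1.04, -2.02 and -1.74.

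The place of single libraries was read on a scale set for each gene by wild type, on which the mean of WT-NT is 0 and that of WT-GS is 1, over the 6 genes called there. The library labelled KO-NT 4 lay at 1.01 for Ern1, 1.19 for Xbp1, 1.09 for Eif2ak3, 1 for Atf6, 1.07 for Creb3l1 and 0.783 for Mbtps2. All of these places are near the mean of the starved wild-type cells. The library labelled KO-GS 3 lay at 0.133 for Ern1, -0.445 for Xbp1, 0.491 for Eif2ak3, 0.0416 for Atf6, 0.303 for Creb3l1 and 0.079 for Mbtps2. For these genes KO-GS 3 lay close to WT-NT 4, which stood at 0.113, -0.552, 0.43, 0.0393, 0.273 and 0.205 in the same order. No pair of libraries matched within sampling noise, since the smallest chi-square per gene between any pair was 34, where 1 is sampling noise. By this measure, taken over all genes, KO-GS 3 and WT-NT 4 stood at 46.8. KO-GS 3 stood at 620 and 388 with KO-GS 1 and 2, and WT-NT 4 at 200, 344 and 230 with WT-NT 1, 2 and 3.

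**Figure D3:**
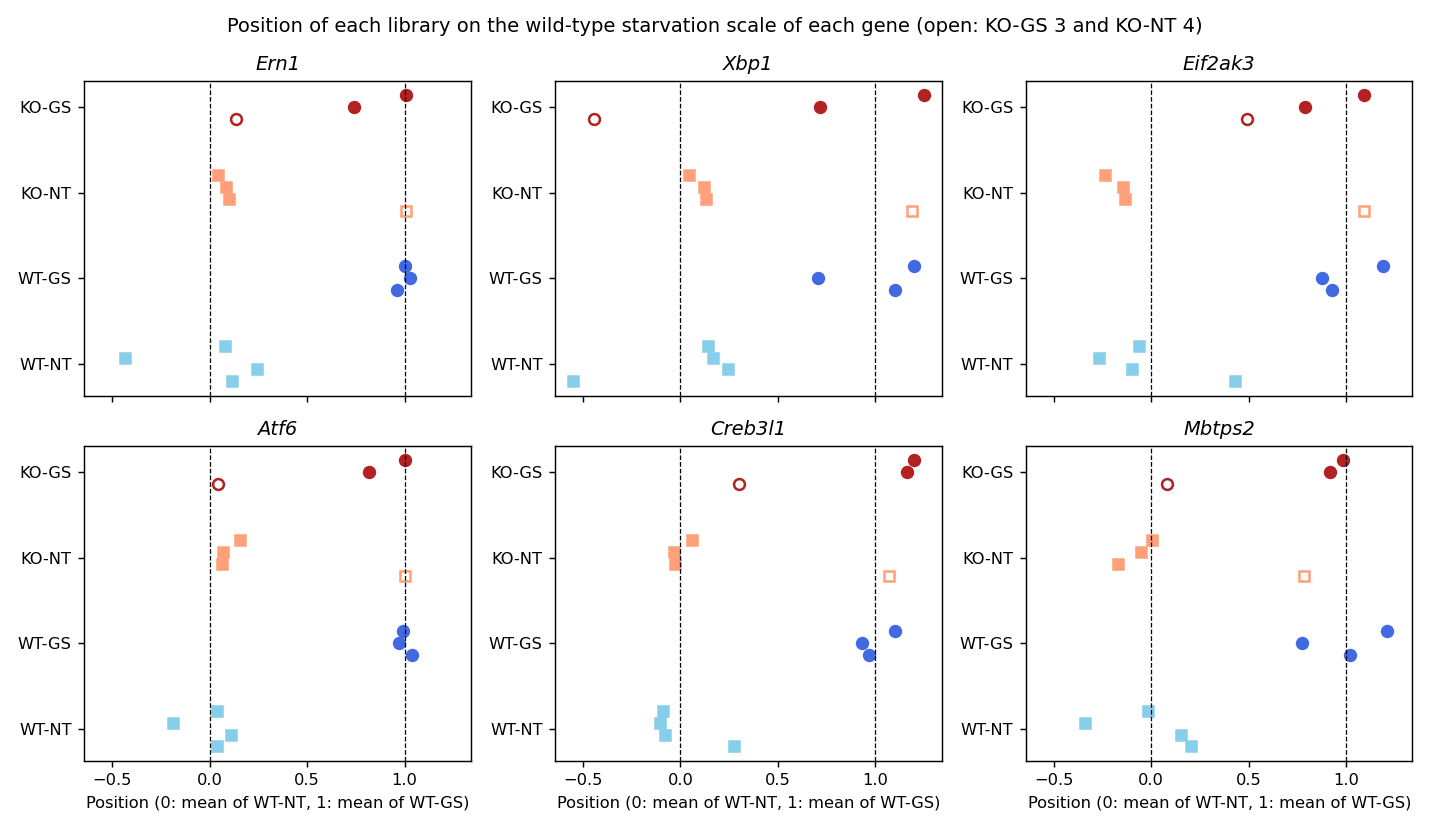
Position of each library (x axis, no unit, with the WT-NT mean as 0 and the WT-GS mean as 1) for the 6 genes called in wild type, by group (y axis), with the libraries labelled KO-GS 3 and KO-NT 4 as open symbols. KO-NT 4 stood at 0.783 to 1.19 and KO-GS 3 at -0.445 to 0.491.

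Atf6 and Creb3l1 moved oppositely, and the ratio of their counts, chosen after its values were seen, separated the libraries into a high and a low range. It was 7.17, 5.63 and 0.872 in KO-GS, against 0.74, 0.601, 0.601 and 6.19 in KO-NT. In wild type it was 6.31, 5.06 and 5.65 in WT-GS, against 0.545, 0.418, 0.593 and 0.839 in WT-NT. The ratio holds no length correction, so it is a ratio of counts and not of molecules. The high range held the starved libraries other than KO-GS 3, together with KO-NT 4.

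**Figure D4:**
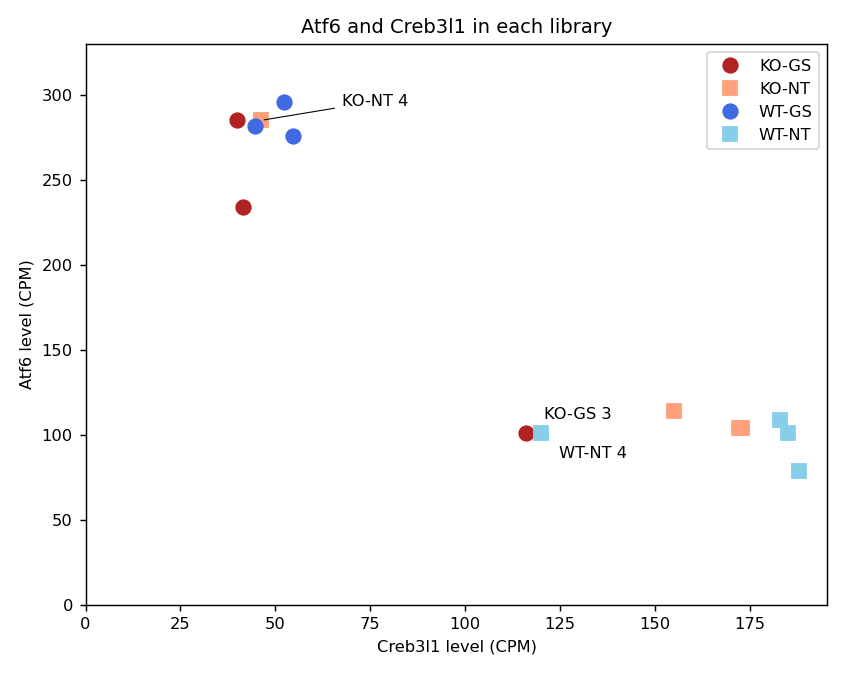
Atf6 level against Creb3l1 level, both in CPM, in the 14 libraries, coloured by group. The libraries with Atf6 at 234 CPM or more had Creb3l1 at 54.6 CPM or less, and the library labelled KO-NT 4, like that labelled KO-GS 3, sat with the groups of the other medium.

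The next comparisons ask whether these genes differed between SirT7-/- and wild-type cells in the same medium. In normal medium 0 of the 10 genes were called, beside 0.00668% of the 14971 genes tested, which is Sirt7 alone. At an unadjusted p under 0.05 edgeR gave 564 genes there, and DESeq2 called 50 genes (0.334%), none among the 10. The libraries of KO-NT and WT-NT overlapped for all 10 genes, beside 3.09% of all genes tested that did not overlap. The largest difference among the 10 was that of Atf6, which averaged 152 ± 89.1 CPM in KO-NT and 97.3 ± 12.9 CPM in WT-NT (SD, n = 4 each). Its log2 difference was 0.64 (SE 0.337, 95% interval -0.13 to 1.41, edgeR adjusted p = 1). Without the library labelled KO-NT 4, Atf6 averaged 107 ± 6.07 CPM in KO-NT, and the log2 difference was 0.14 (95% interval -0.14 to 0.41). In that fit the log2 differences of the 10 genes ran from -0.17 for Eif2ak3 to 0.17 for Atf6b, and 0.0331% of 15107 genes were called.

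Without glucose 0 of the 10 genes were called between the genotypes, beside 0.00668% of the 14972 genes tested, again Sirt7 alone. At an unadjusted p under 0.05 edgeR gave 490 genes, and DESeq2 called 13 (0.0868%), none among the 10. Creb3l2 had 86.6, 85.2 and 81.4 CPM in KO-GS, against 90.6, 103 and 100 CPM in WT-GS. Every KO-GS library was below every WT-GS library, which held for 11% of all genes tested in one direction or the other. The log2 difference of Creb3l2 was -0.21 (SE 0.0876, unadjusted p = 0.0478, edgeR adjusted p = 0.81). Creb3l1 had a log2 difference of 0.37 as labelled (95% interval -0.66 to 1.4) and of -0.31 without the library labelled KO-GS 3 (95% interval -0.59 to -0.02, edgeR adjusted p = 1). Its sign therefore turned with that library. Without it 0.0264% of 15156 genes were called, and the other 9 genes had log2 differences between -0.18 for Creb3l2 and 0.06 for Atf6b.

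A test of the difference between the genotypes' responses to starvation, an interaction term over all 14 libraries, called 0 of the 10 genes and 0% of the 15666 genes tested. At an unadjusted p under 0.05 it gave 950 genes, and DESeq2 called 5 (0.0319%), none among the 10. The largest difference was that of Atf6, at -1.1 on the log2 scale (SE 0.53, 95% interval -2.25 to 0.05, edgeR adjusted p = 0.68). Without the 2 libraries it was -0.26 (95% interval -0.63 to 0.1, edgeR adjusted p = 1). For Ern1 that interval was -0.59 to 0.29, for Xbp1 -0.44 to 0.37, for Eif2ak3 -0.31 to 0.56 and for Creb3l1 -0.79 to 0.24. A p that misses the threshold does not show equal responses, and these intervals give the differences that the remaining libraries allow.

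Over the 4 groups as labelled, the means of Ern1, Xbp1, Eif2ak3, Atf6, Creb3, Creb3l2, Mbtps1 and Mbtps2 ran in one order, highest in WT-GS, then KO-GS, KO-NT and WT-NT. Creb3l1 ran in the reverse order, and for Atf6b the order was KO-NT, WT-GS, WT-NT and KO-GS. Each group overlapped its neighbours in the order, except that the highest and second groups did not overlap for Creb3l2 and Atf6b. Only Ern1, Xbp1, Atf6 and Creb3l2 had the first of these orders without the 2 libraries. Eif2ak3 then averaged 36.1 CPM in KO-NT, against 40.4 CPM in WT-NT, and Mbtps2 31.9 CPM in KO-NT, against 33.1 CPM in WT-NT. Mbtps1 averaged 237 CPM in KO-GS, against 234 CPM in WT-GS, and Creb3l1 40.7 CPM in KO-GS, against 50.5 CPM in WT-GS. Creb3 was highest in KO-NT at 86.9 CPM and lowest in KO-GS at 77.3 CPM, and Atf6b was highest in KO-NT at 65.2 CPM and lowest in WT-NT at 57.9 CPM. From the lowest to the highest of the 14 libraries, levels spanned 4.74-fold for Creb3l1 and 3.75-fold for Atf6, and 1.26-fold for Mbtps1, the least of the 10.

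Genes outside the set were ranked by likeness to each of the 6 genes that spanned at least 1 log2 unit over the 14 libraries. The ranking uses all 14 libraries, KO-GS 3 and KO-NT 4 included, and was not repeated without them. The measure was the root mean square difference of centred log2 CPM, over 10299 genes with a mean of at least 5 CPM. Nearest to Atf6 were Atp2a2 (0.113), the calcium pump of the endoplasmic reticulum, Edem1 (0.133), a factor in degradation of misfolded glycoproteins, and Got1 (0.134), a cytosolic aminotransferase. Nearest to Creb3l1 were Tmem198b (0.141), Hs6st1 (0.168) and Cdca3 (0.18). For Ern1 the nearest were Ttc7b (0.0932), Far1 (0.104) and Ascc2 (0.105), and for Eif2ak3 Atg14 (0.0682), Npc1 (0.08) and B3galnt2 (0.0844). For Xbp1 they were Ldlrad3 (0.0726), Rpl4 (0.0761) and Ctbp2 (0.0813), and for Mbtps2 Insr (0.0615), Sypl (0.0651) and Zfp191 (0.0676).

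Downstream and partner genes were taken from lists of textbook targets, some of which share members. Their counts stand beside the 33.8% of all genes called in wild type, 16.8% higher and 17% lower. In wild-type cells without glucose all 12 listed targets of ATF6 rose, with a median log2 change of 2.47, beside -0.035 over all genes tested. Herpud1, a membrane protein of degradation from the endoplasmic reticulum, changed by 2.43 (SE 0.113, edgeR adjusted p = 6.59e-05), and the chaperone Hyou1 by 2.77 (SE 0.147, edgeR adjusted p = 6.95e-05). Derl3, a derlin of the same degradation route, had 126, 62.2 and 92 CPM in WT-GS, against 0.23, 0.313, 0.254 and 0.542 CPM in WT-NT, a log2 change of 8.09 (SE 0.375, edgeR adjusted p = 6.59e-05). In SirT7-/- cells Derl3 had 215, 45.1 and 0.317 CPM in KO-GS, against 0.364, 0.314, 0.252 and 144 CPM in KO-NT. KO-GS 3 and KO-NT 4 stood with the other medium for Derl3, as they did for Atf6.

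Of 23 listed XBP1 targets, 14 rose and 2 fell in wild type, with a median log2 change of 0.54, and in the fit over all 4 groups 13 were called higher and 0 lower. Among them Dnajb9, a co-chaperone of BiP, changed by 3.64 (SE 0.237, edgeR adjusted p = 0.000131) and Dnajb11, also listed under ATF6, by 1.81 (SE 0.0985, edgeR adjusted p = 6.95e-05). Partners of the IRE1 arm went both ways, with 4 of 11 tested higher and 1 lower, beside 33.8% of all genes called in either direction. The fit over all 4 groups called 3 of them higher and 2 lower. The partners included the ubiquitin ligase gene Syvn1 at 1.64 (SE 0.109, edgeR adjusted p = 0.000145). The paralog Ern2 had 0 counts in 13 libraries and 0.0109 CPM in KO-NT 4, below the floor of 3 counts.

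Of 18 genes of the PERK arm and of eIF2 phosphorylation, 7 rose and 3 fell, with a median of 0.21, beside 16.8% higher and 17% lower over all genes. The fit over all 4 groups called 6 of them higher and 2 lower. Ddit3, the factor CHOP, changed by 2.49 (SE 0.159, edgeR adjusted p = 0.000129), and Ppp1r15a, which encodes the phosphatase subunit GADD34, by 1.72 (SE 0.19, edgeR adjusted p = 0.000791). Atf4, whose protein is controlled by translation, had a log2 change of 0.29 that was not called (edgeR adjusted p = 0.143).

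Among 8 tested substrates, regulators and escorts of the site-1 and site-2 protease route, 2 rose and 5 fell, with a median of -0.66. The fit over all 4 groups called 2 of them higher and 4 lower. Insig1, which holds back sterol-regulated precursors in the endoplasmic reticulum, changed by -2.05 (SE 0.11, edgeR adjusted p = 6.95e-05), and Srebf2, the sterol-regulated transcription factor, by -1.57 (SE 0.136, edgeR adjusted p = 0.00035). Bdnf, a growth factor precursor, changed by 1.88 (SE 0.0925, edgeR adjusted p = 6.59e-05). Of 11 listed secretory and matrix targets of CREB3L1 and CREB3L2, 2 rose and 3 fell, with a median of -0.06, beside 33.8% of all genes called in either direction. In the fit over all 4 groups 1 was called higher and 2 lower. Col1a1, a collagen gene known as a target of CREB3L1 in mouse bone, had 2600, 2780 and 2980 CPM in WT-GS, against 9850, 14300, 13900 and 8820 CPM in WT-NT, a log2 change of -2.07 (SE 0.211, edgeR adjusted p = 0.000587). Col1a2 changed by -1.39 (SE 0.136, edgeR adjusted p = 0.00052), while the coat protein gene Sec23b changed by 0.56 (SE 0.0676, edgeR adjusted p = 0.00108). Both collagen genes are part of the fibroblast marker sum, so the lower sum in WT-GS is not a separate observation from their fall.

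Of 6 listed relatives outside the set, 0 rose and 1 fell in wild type. This list was wider than the CREB3 family, since it took in Creb1, Atf1 and Crebzf beside Creb3l3 and Creb3l4. The one that fell, Creb3l3, lay between 0 and 0.416 CPM in all libraries, near the floor (log2 change -1.96, SE 0.627, edgeR adjusted p = 0.0457), and it was not called in the fit over all 4 groups. Creb3l4 stood at 0.94 to 1.75 CPM, with a log2 change of -0.03 (edgeR adjusted p = 0.952). In SirT7-/- cells as labelled, edgeR called 0 genes of any of these lists for starvation, while DESeq2 called 1 XBP1 target and 1 gene of the protease route, both lower. Without the 2 libraries, 12 of 12 ATF6 targets rose (median log2 change 2.37), 13 of 23 XBP1 targets rose and 4 fell (0.57), and 6 of 18 PERK-arm genes rose and 3 fell (0.06). In the same fit 5 of 8 genes of the protease route fell and 2 rose (-0.76). Of 11 IRE1 partners 2 rose and 1 fell (0.13), and of the 6 listed relatives 1 rose and 1 fell (0.27). Of 11 matrix and secretory targets 1 rose and 3 fell (-0.04). These counts stand beside 39.7% of all genes called in the same fit, 20.9% higher and 18.8% lower.

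**Figure D5:**
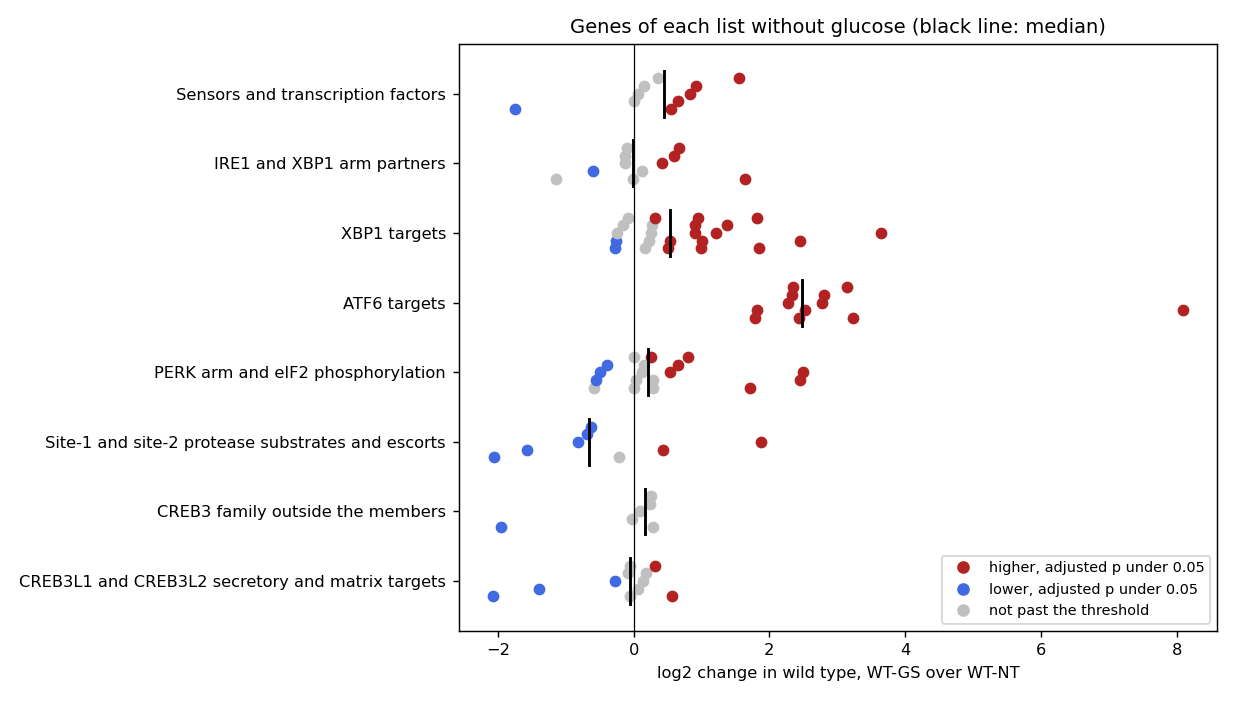
Log2 change in wild type without glucose (x axis) of the 10 genes and of the genes of each pathway list (y axis), with colour showing calls at an adjusted p under 0.05 and black lines the medians. The ATF6 targets lay between 1.79 and 8.09, and the 10 sensors and factors between -1.74 and 1.55.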

How the data were processed

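Libraries of total RNA were made with the TruSeq RNA v2 kit, per the labels' protocols. Per the submitters' processing notes, the tools were FastQC 0.11.3, Trimmomatic 0.36, HISAT2 2.1.0, SAMtools, StringTie 1.3.3 and DESeq2 1.18.1 with genome build mm9. The annotation, read length and strand setting are not given in the sources used here. The authors deposited estimated counts per gene symbol, already whole numbers, for 24015 genes in 14 libraries.

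The test was that of edgeR 4.0.16 under R 4.3.3 (quasi-likelihood F-test, robust, TMM normalization, filterByExpr with minimum count 10 and minimum total 15) on the groups compared, and the interaction on all 14 libraries. Adjustment was by Benjamini-Hochberg over all genes tested, with a threshold of 0.05. The SE was worked back from the F-test. Genes are the 10 members, Sirt7, up to 4 genes per pathway list with the smallest p in wild type, Creb3l3, Creb3l4 and Ern2, and the 3 nearest genes by likeness. Other named genes (Atf4) were chosen after their values were seen. The members and lists were chosen with earlier results of these data known. Alternatives were DESeq2 1.42.0, RLE or library-size scaling, no or a stricter filter, a fit over all 4 groups, a replicate block, leaving out each library, and leaving out 2 libraries. The procedure was tested on simulated data with the same spread for all genes and no library standing apart, and without the interaction. That test therefore does not cover libraries such as KO-GS 3 and KO-NT 4. Annotation came from GENCODE M21 (GRCm38), so no gene coordinates were tied to the counts.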

Additional observations from a re-analysis of the deposited data

Results flagged for a closer look

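Levels in CPM were checked for a library that stood far from the others in the groups of 4, KO-NT and WT-NT, for each of the 10 genes. The measure was the gap to the nearest library as a share of the group's range, set against Dixon's 95% critical value for 4 libraries. Of 20 sets checked, 8 passed it, where chance gives 5% for a single set. The sets come from the same libraries and are not independent, and the share over all genes was not worked out. Over all genes, KO-NT 4 had a chi-square per gene of 637 to 679 with the other KO-NT libraries, which had 34 to 45 among themselves. KO-NT 4 thus stood apart over all genes and not only for these 10. Whether the count of 8 is particular to these genes was not tested.

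In KO-NT the library standing apart was KO-NT 4 in 6 sets. The ratio was 0.958 for Ern1, 0.937 for Xbp1, 0.946 for Eif2ak3 and 0.94 for Atf6, with KO-NT 4 the highest each time. It was 0.847 for Mbtps2, also highest, and 0.852 for Creb3l1, where KO-NT 4 was the lowest. These are the 6 genes called for starvation in wild type.

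In WT-NT the library standing apart was WT-NT 4 in 2 sets, with a ratio of 0.854 for Xbp1 and 0.925 for Creb3l1, the lowest level in both. The groups without glucose have 3 libraries each and were not checked, so KO-GS 3 could not appear here.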

How the results depend on the processing

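Of the values of the 10 genes under all alternatives, 738 kept direction and call, 49 changed sign, 10 passed only under the alternative and 3 passed only as reported (Xbp1). In wild type, Ern1, Eif2ak3, Atf6, Creb3l1 and Mbtps2 kept their direction and call under all 14 alternatives. Genes called numbered 2841 to 6668 when 1 library was left out, with 2841 without WT-GS 1, 3353 without WT-GS 2 and 2856 without WT-GS 3. Near 0 the sign of Atf6b turned (-0.033 by library size, -0.013 with the block, -0.066 to 0.094 leaving out 1 library) and so did that of Creb3 (-0.003 to 0.125). In SirT7-/- DESeq2 called 626 genes, and leaving out 1 library gave 0 to 2182 genes and 0 to 1 of the 10, the 1 being Eif2ak3 without KO-NT 4 (edgeR adjusted p = 0.0228). Without the 2 libraries 6065 genes and 6 of the 10 were called. Leaving out 1 library, log2 changes there ran from -0.112 to 0.333 for Xbp1, -0.021 to 0.103 for Mbtps1, -0.092 to 0.149 for Creb3 and -0.026 to 0.076 for Creb3l2, and Creb3 was -0.157 without the 2 libraries.

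Between genotypes in normal medium, 50 genes were called by DESeq2, 5 without the 2 libraries and 0 to 5 leaving out 1. Creb3 was -0.015 by library size and -0.053 to 0.074 leaving out 1 library, Eif2ak3 -0.17 to 0.318 and Mbtps2 -0.061 to 0.176. Without glucose the counts were 13, 4 and 0 to 4. By library size Atf6b was 0.01, Creb3 0.024 and Mbtps1 0. Without the 2 libraries Xbp1 was 0.003, Atf6b 0.055, Creb3l1 -0.306 and Mbtps1 0.025. Leaving out 1 library, ranges were -0.453 to 0.003 for Xbp1, -0.203 to 0.055 for Atf6b, -0.141 to 0.087 for Creb3, -0.306 to 0.626 for Creb3l1 and -0.1 to 0.025 for Mbtps1. For the interaction DESeq2 called 5 genes and leaving out 1 library 0 to 1. Creb3 was 0.039 by library size and -0.161 to 0.07 leaving out 1, Creb3l1 -0.001 to 0.937. Without the 2 libraries Eif2ak3 was 0.125, Creb3l1 -0.277, Mbtps1 0.001 and Mbtps2 0.031. The cause was not tested.

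Deviations of same-numbered libraries correlated at -0.116 to 0.458 (median 0.092, 9 of 19 pairs over 0.1), and those of other pairs at a median of -0.0664 (15 of 54 over 0.1). Not every pair passed 0.1, not every library correlated best with its own number, and the numbers were not used as a pairing. With the replicate block, 5906 genes were called in wild type and 0 in each other comparison, and 6 of the 10 genes were called in wild type. The log2 change of Creb3 in SirT7-/- was -0.036 with the block. At these depths counting error is small for the 10 genes, and the number of libraries limits precision.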

Other observations

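Ratios of counts between paralogs, chosen after their values were seen, also fell into a high and a low range. The ratio of Atf6 to Atf6b was 4.13, 4.54 and 2.01 in KO-GS, against 1.87, 1.56, 1.53 and 3.54 in KO-NT. In wild type it was 4.74, 5.06 and 4.86 in WT-GS, against 2.06, 1.15, 1.77 and 1.9 in WT-NT. The ratio of Creb3l1 to Creb3l2 was 0.46, 0.488 and 1.42 in KO-GS, against 2.03, 2.13, 2.03 and 0.502 in KO-NT. In wild type it was 0.494, 0.531 and 0.522 in WT-GS, against 2.32, 3.24, 2.11 and 1.51 in WT-NT.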
